A study of Mus musculus with 8 samples.

Results

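Genes of the interleukin-1 (IL-1) and IL-33 pathway were examined in RNA-seq libraries of stromal cells sorted from mouse melanomas. They were 10 genes, chosen by name from the 53801 genes of the count table: the ligands Il1a, Il1b and Il33, the antagonist Il1rn, the receptors Il1r1, Il1rl1 and Il1rl2, the shared co-receptor Il1rap, the adaptor Myd88 and the kinase Irak2. The tumours were MO5 melanomas, which derive from B16 melanoma cells made to express ovalbumin, and were taken 8 days after injection under the skin of C57BL/6 mice aged 8 to 12 weeks. All mice carried the ADAM12-GFP transgene, in which regulatory DNA of Adam12 on a bacterial artificial chromosome drives Cre and GFP, so both groups came from reporter animals. Living cells negative for CD45 and CD31 and positive for PDPN and PDGFRα were divided by GFP into ADAM12+ cells (GFP+, 4 libraries) and ADAM12- cells (GFP-, 4 libraries). By the study's methods n counts mice, and the labels do not say which libraries share a mouse.

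IL-1α and IL-1β signal through a receptor made of the Il1r1 product and the Il1rap co-receptor, and the Il1rn product blocks that receptor by occupying it without starting a signal. IL-33, a nuclear alarmin of stromal and epithelial cells, binds ST2, the Il1rl1 product, and the Il1rl2 product is the receptor for the IL-36 cytokines; both pair with the same co-receptor. All of these receptors recruit the adaptor MyD88 and kinases of the IRAK family, which leads in fibroblasts to NF-κB activity and to the release of chemokines, IL-6 and matrix-degrading enzymes.

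Total counts were 883144 to 17535099 in the GFP- libraries and 8776925 to 31666734 in the GFP+ libraries, and GFP- replicate 3 was the shallowest. A normalised read count is the raw count divided by the DESeq2 size factor of the library. Of the fibroblast markers, 7 of 9 were called higher in GFP+ cells, and the 9 melanocyte markers were all called lower, with summed normalised counts of 24110 to 71000 in GFP- and 4509 to 11230 in GFP+ libraries. The part of melanocyte transcripts in the differences given here was not tested. Normalised counts of Adam12 itself averaged 1362 ± 357 (SD, n = 4) for the GFP- group and 2302 ± 484 (SD, n = 4) for the GFP+ group, so its transcript was not confined to the GFP+ gate. In sorted bulk samples, fewer cells of a type and less RNA per cell cannot be told apart.

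Il1r1 was the 1 member called different between the groups, and it was higher in GFP+ cells. Il1r1 (ENSMUSG00000026072, plus strand of chromosome 1, 40225080 to 40317257, GRCm38), which encodes the signalling receptor for IL-1α and IL-1β, had normalised counts of 2271, 2451, 3560 and 1816 in GFP- replicates 1 to 4. The GFP+ replicates had 5205, 4844, 6006 and 4933. Every GFP+ library lay above every GFP- library, and the highest GFP- value came from the shallow replicate 3. The means were 2524 ± 740 (SD, n = 4) and 5247 ± 529 (SD, n = 4), a 2.10-fold difference (log2 fold change 1.07 ± 0.21 SE, 95% interval 0.65 to 1.49), which DESeq2 called (adjusted p = 3.51e-05). Of the 15283 genes that received an adjusted p, 9.42% were called in either direction, 4.66% higher and 4.76% lower in GFP+ cells, and 6.37% had all GFP+ libraries above all GFP- libraries. The 1 called member of 9 tested is to be read against these shares. By mean normalised count Il1r1 stood at percentile 97.9 of the tested genes.

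**Figure D1:**
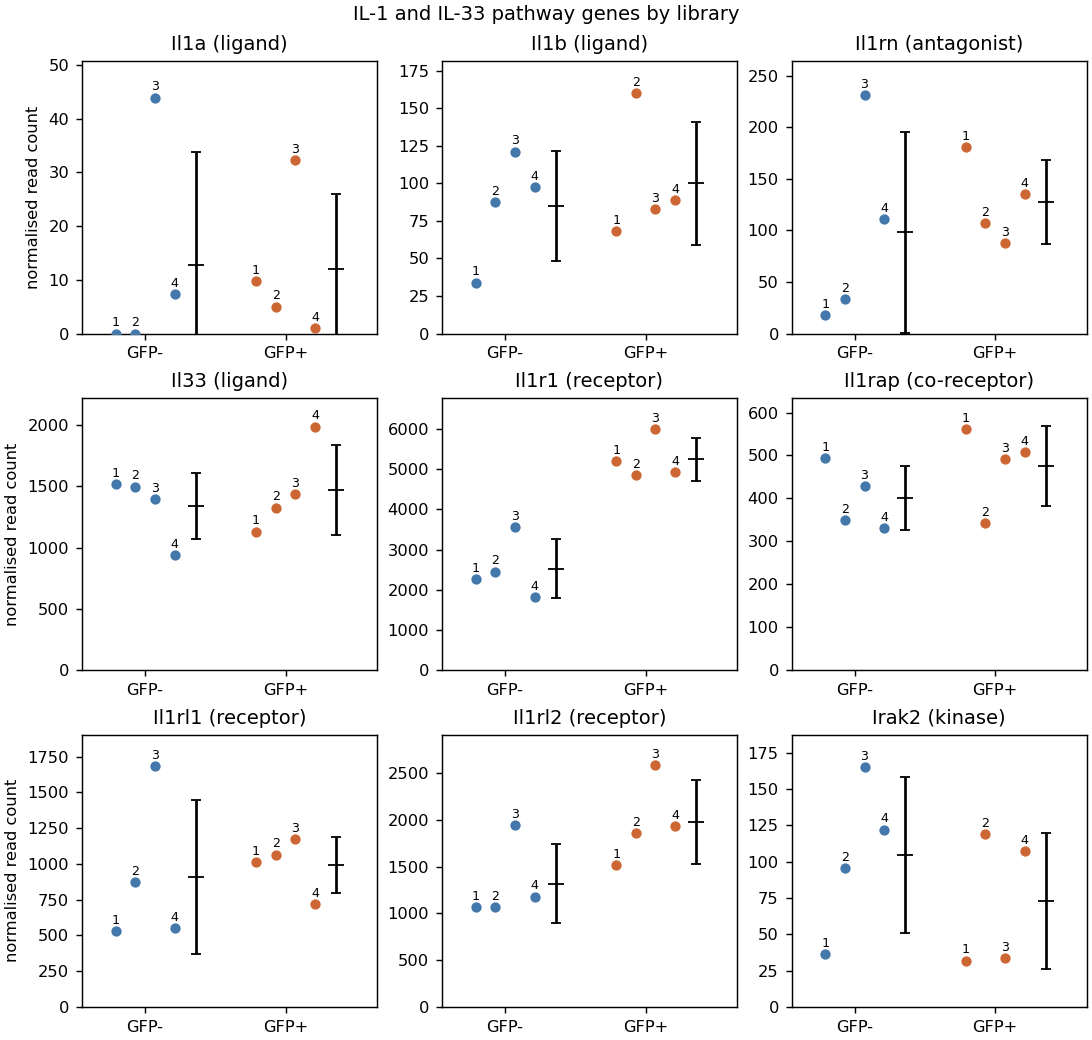
Normalised read count (y axis, linear, from 0) of 9 pathway genes in the 4 GFP- and the 4 GFP+ libraries (x axis). Points are libraries with their replicate numbers, and the black bars give the mean and SD (cut at 0 for Il1a); the groups are apart for Il1r1 and overlap for the other genes shown.

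The difference in Il1r1 was next set against other transcripts of the same libraries, because such ratios do not depend on the size factors. The log2 ratio of Il1r1 to its co-receptor Il1rap was 2.20, 2.81, 3.05 and 2.46 in GFP- replicates 1 to 4 and 3.21, 3.82, 3.61 and 3.28 in GFP+ replicates 1 to 4. The 2 groups did not overlap, and the difference was 0.85 ± 0.24 (SE). Relative to Il1rl2, Il1r1 was higher in GFP+ cells by 0.49 ± 0.18 (SE) on the log2 scale, again without overlap. Relative to the geometric mean of the 9 fibroblast markers (Pdgfra, Pdpn, 3 collagen genes, Dcn, Lum, Thy1 and Fap), the difference was 0.18 ± 0.17 (SE) and the groups overlapped. The ratios were chosen after the values were seen, with Il1r1 picked for its difference, and are given as a description with no test.

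**Figure D2:**
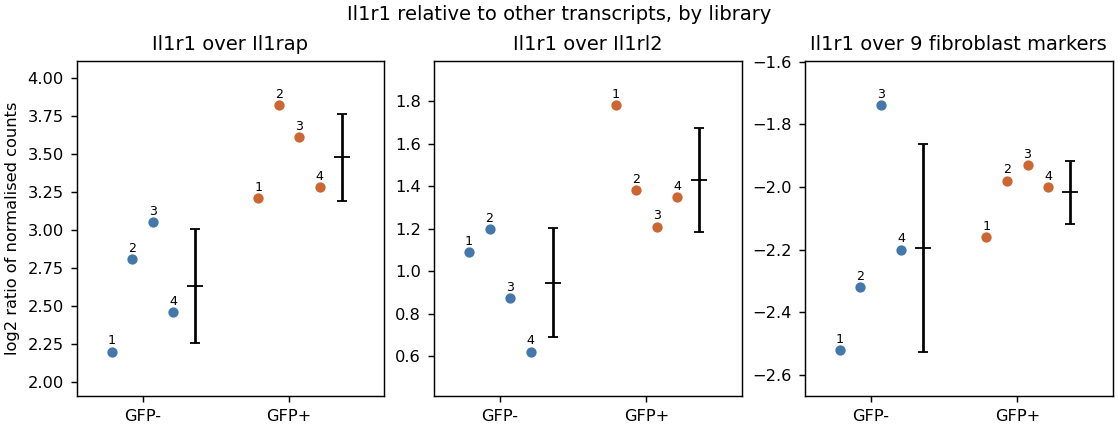
Log2 ratio of the normalised count of Il1r1 to that of Il1rap, of Il1rl2 and of the geometric mean of 9 fibroblast markers (y axes, which do not start at 0) in GFP- and GFP+ libraries (x axis). Points are libraries with their replicate numbers and black bars the mean and SD; the groups are apart in the first and second panels and overlap in the third.

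The libraries were also rescaled on those markers. With DESeq2 size factors computed from the fibroblast markers alone, a scaling added after the data were seen, the median log2 fold change of the tested genes moved from -0.01 to -0.98, and the log2 fold change of Il1r1 became 0.12 with an adjusted p of 0.671. Il1r1 thus stood 1.08 above the median of the tested genes under the first scaling and 1.10 above it under the second. The 712 higher and 727 lower genes of the main comparison became 81 higher (0.511% of 15865 tested) and 7510 lower (47.3%). Under this scaling Il1rap (log2 fold change -0.72, DESeq2 adjusted p = 0.0140) and Il33 (-0.77, DESeq2 adjusted p = 0.00951) were called lower, and the other members were not called. Both stood above the shifted median of the tested genes, Il1rap by 0.27 and Il33 by 0.21, so these calls show a fall relative to the fibroblast markers and not relative to most genes. Adam12 went from a log2 fold change of 0.75 (DESeq2 adjusted p = 0.0266) to -0.14 (DESeq2 adjusted p = 0.677). It stood 0.76 above the median of the tested genes under the first scaling and 0.84 above it under the second. Pdgfra and Pdpn served in the sort, and whether the fibroblast markers or the bulk of the genes are the steadier reference was not tested.

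**Figure D3:**
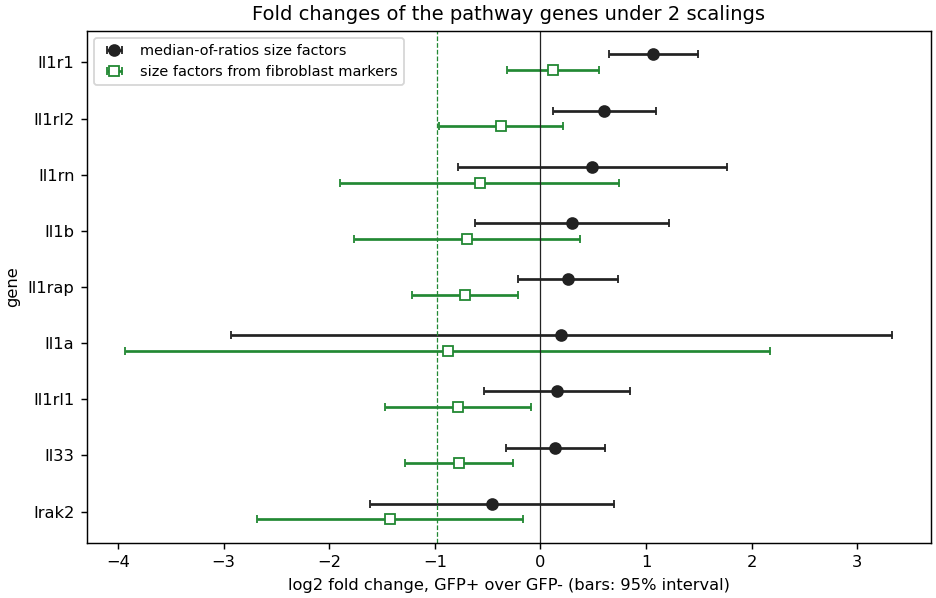
Log2 fold change of GFP+ over GFP- (x axis, with 95% intervals) for 9 pathway genes (y axis), with median-of-ratios size factors (filled circles) and with size factors from 9 fibroblast markers (open squares). The solid and the dashed vertical lines mark the median of the tested genes under each scaling, -0.01 and -0.98; the interval of Il1r1 lies above 0 under the first and spans 0 under the second.

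Il1rl2 (ENSMUSG00000070942, plus strand of chromosome 1, 40324610 to 40367562), the IL-36 receptor, followed Il1r1 in the size of its difference but was not called. Its normalised counts were 1070, 1069, 1945 and 1180 in GFP- replicates 1 to 4 and 1519, 1855, 2587 and 1936 in GFP+ replicates 1 to 4. The groups overlapped through GFP- replicate 3, where the value rested on 177 reads; without that library the lowest GFP+ value lay above the highest GFP- value. DESeq2 estimated a log2 fold change of 0.61 ± 0.25 (SE; adjusted p = 0.114). By edgeR the adjusted p was 0.0353 (4.37% of 29043 genes called in all) and by limma voom it was 0.0144 (3.23% called). Without GFP- replicate 3 the log2 fold change was 0.83 (DESeq2 adjusted p = 0.00225), and without GFP+ replicate 1 it was 0.73 (DESeq2 adjusted p = 0.0439). The other 6 fits that left out 1 library did not call it, with DESeq2 adjusted p values of 0.167 to 0.356, and over all 17 alternatives it was called in 5.

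Il1r1 and Il1rl2 lie side by side on chromosome 1, with Il1rl1 beyond them and Il1r2, the gene of the decoy receptor that binds IL-1 without signalling, before them (40074079 to 40125231). Il1r2 was singled out after its values were seen. Its normalised counts averaged 649.5 ± 178 (SD, n = 4) for GFP- and 1028 ± 271 (SD, n = 4) for GFP+ cells, a log2 difference of 0.65 ± 0.27 (SE) that was not called (DESeq2 adjusted p = 0.116). Il1r2 was called in 2 of 17 alternatives. These were the fits without GFP- replicate 1 (0.86, DESeq2 adjusted p = 0.0197) and without GFP+ replicate 4 (0.81, DESeq2 adjusted p = 0.0267). Promoter windows of Il1r1 and Il1rl2 (RefSeq, GRCm38.p6, 250 bases before to 50 after an annotated start) are shown because these adjacent receptor genes had the highest positive fold changes of the 10 members. All 10 members matched a window in that table, with 15 windows between them. The windows were searched on both strands for an AP-1 motif (TGANTCA), an NF-κB motif (GGGNNTTCC), a TATA box (TATAAA) and a STAT motif (TTCNNNGAA), and matches are in capitals.
Il1r1, first window, chr1:40224830-40225129, plus strand: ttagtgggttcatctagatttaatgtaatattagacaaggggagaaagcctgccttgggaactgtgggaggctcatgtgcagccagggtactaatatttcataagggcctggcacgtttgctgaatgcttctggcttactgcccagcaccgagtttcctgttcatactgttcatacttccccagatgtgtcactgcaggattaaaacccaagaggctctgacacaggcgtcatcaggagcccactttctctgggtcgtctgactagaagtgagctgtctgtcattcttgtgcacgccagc
Il1r1, second window, chr1:40266336-40266635, plus strand: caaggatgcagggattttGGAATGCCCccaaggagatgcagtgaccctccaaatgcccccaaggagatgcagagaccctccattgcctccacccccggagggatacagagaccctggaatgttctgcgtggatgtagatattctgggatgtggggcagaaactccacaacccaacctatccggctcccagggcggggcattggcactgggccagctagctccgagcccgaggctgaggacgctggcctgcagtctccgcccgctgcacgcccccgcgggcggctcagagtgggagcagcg
Il1rl2, chr1:40324339-40324638, plus strand: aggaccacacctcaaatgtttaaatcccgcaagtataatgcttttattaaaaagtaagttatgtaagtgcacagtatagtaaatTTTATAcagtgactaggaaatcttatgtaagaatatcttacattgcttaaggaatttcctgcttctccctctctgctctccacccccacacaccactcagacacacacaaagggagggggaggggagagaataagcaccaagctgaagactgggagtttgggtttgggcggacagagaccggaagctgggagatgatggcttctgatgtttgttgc
The first Il1r1 window held no match to the 4 motifs, the second held 1 match to the NF-κB letters and the Il1rl2 window 1 match to the TATA letters, both read on the opposite strand. Of all 32851 windows in the table, 7.81% held the AP-1 letters, 5.82% the NF-κB letters, 13.6% the TATA letters and 8.30% the STAT letters. The start that the cells used was not measured.

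Il1rap (ENSMUSG00000022514, plus strand of chromosome 16, 26581704 to 26730117), the co-receptor for IL-1, IL-33 and IL-36, had normalised counts of 494, 350, 429 and 330 in GFP- replicates 1 to 4. The GFP+ replicates had 562, 343, 492 and 507. GFP+ replicate 2 had the second lowest value of all 8 libraries, the groups overlapped, and the log2 fold change of 0.26 ± 0.24 (SE) was not called (DESeq2 adjusted p = 0.605).

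Il1rl1 (ENSMUSG00000026069, plus strand of chromosome 1, 40429570 to 40465415) encodes ST2, whose membrane form is the IL-33 receptor and whose secreted form binds IL-33 without signalling. It had normalised counts of 528, 871, 1681 and 550 in GFP- replicates 1 to 4 and 1011, 1064, 1175 and 717 in GFP+ replicates 1 to 4. GFP- replicate 3 was the highest of the 8 libraries, and GFP- replicates 1 and 4 the lowest. The log2 fold change of 0.15 ± 0.35 (SE; 95% interval -0.54 to 0.85) was not called (DESeq2 adjusted p = 0.874), and counts per gene do not separate the membrane and the secreted form. T cells, type 2 innate lymphoid cells and mast cells can carry ST2, and the CD45- gate was set to remove them. Their markers summed to 1659 to 3263 in GFP- and 2264 to 3063 in GFP+ libraries (exact permutation p = 0.286, adjusted 0.458 over 8 lists). Of these 16 markers 15 had a count and Fcer1a had none; Rora alone made up 78.8% of the sum, and Kit was called higher. Their part in the Il1rl1 counts was not tested.

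Il33 (ENSMUSG00000024810, plus strand of chromosome 19, 29925114 to 29960718) was the most abundant ligand per kilobase, of exon or of the whole gene interval. Its normalised counts were 1518, 1499, 1395 and 942 in GFP- replicates 1 to 4 and 1132, 1328, 1440 and 1988 in GFP+ replicates 1 to 4. Replicates 4 held both the lowest GFP- and the highest GFP+ value, and the other 6 libraries overlapped. The difference, 0.14 ± 0.24 (SE) as a log2 fold change with a 95% interval of -0.33 to 0.61, was not called (DESeq2 adjusted p = 0.819).

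The IL-1 ligands had fewer counts per length than their receptor: over the 8 libraries, Il1r1 had 12.6 times the level of Il1b per kilobase of exon and 3.00 times its level per kilobase of the whole gene interval. Il1b (ENSMUSG00000027398, minus strand of chromosome 2, 129364570 to 129371139) had normalised counts of 33.9, 87.4, 121 and 97.2 in GFP- replicates 1 to 4 and 68.0, 160, 83.0 and 88.6 in GFP+ replicates 1 to 4. Il1a (ENSMUSG00000027399, minus strand of chromosome 2, 129299610 to 129309972) had 0, 0, 4 and 14 raw reads in the GFP- replicates and 7, 12, 42 and 3 in the GFP+ replicates. Both genes overlapped between the groups and neither was called: the log2 fold change of Il1b was 0.30 ± 0.47 (SE; DESeq2 adjusted p = 0.800), and that of Il1a was 0.20 ± 1.60 (SE; DESeq2 adjusted p = 0.972). The 95% interval for Il1a ran from -2.93 to 3.33, so these counts did not exclude a difference of several-fold in either direction. Il1rn (ENSMUSG00000026981, plus strand of chromosome 2, 24336853 to 24351494), the antagonist, had normalised counts of 17.6, 33.0, 231 and 111 in GFP- replicates 1 to 4 and 181, 107, 87.6 and 135 in GFP+ replicates 1 to 4. The GFP- libraries spanned the whole GFP+ range, and the log2 fold change was 0.49 ± 0.65 (SE; DESeq2 adjusted p = 0.747). It was 1.21 without GFP- replicate 3 (DESeq2 adjusted p = 0.195) and 0.16 without GFP- replicate 1, and was called in neither fit.

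Myeloid cells, which the CD45- gate was set to remove, are a main source of IL-1β and of the antagonist, and their markers were measured in the same libraries. The 15 macrophage and monocyte markers summed to 2369, 1777, 7702 and 2841 normalised counts in GFP- replicates 1 to 4 and 2011, 6334, 1740 and 3346 in GFP+ replicates 1 to 4 (exact permutation p = 0.771, adjusted 0.771). GFP- replicate 3 and GFP+ replicate 2 were the highest, and the same libraries held the highest Il1b values of their groups. Il1rn was highest in GFP- replicate 3 and in GFP+ replicate 1. The values in GFP- replicate 3 rested on only 11 reads of Il1b and 21 of Il1rn. All 15 markers had a count, of 2 table entries for Itgam 1 had none, and 0 of 14 tested were called. The 9 neutrophil markers summed to 6.78 to 54.9 in GFP- and 12.3 to 123 in GFP+ libraries, and the defining genes Ly6g and Cxcr1 were at 0 in all 8 libraries. In GFP+ replicate 4, S100a8, S100a9, Ngp and Csf3r had 54, 58, 159 and 96 reads, and without that library the log2 ratio of the summed neutrophil markers turned from 0.77 to -0.66. The part of these cells in the Il1b and Il1rn counts was not tested. The 11 keratinocyte markers summed to 43.9 to 399 in GFP- and 41.8 to 89.1 in GFP+ libraries (exact permutation p = 0.229, adjusted 0.458). The 9 endothelial markers summed to 1496 to 2923 and 1895 to 3562, and the 9 pericyte and smooth muscle markers to 771 to 1340 and 760 to 1673, with exact permutation p values of 0.286 (adjusted 0.458) and 0.571 (adjusted 0.761). Tek made up 54.2% of the endothelial sum, and single markers of these lists were called: Vwf lower (log2 fold change -3.30, DESeq2 adjusted p = 3.77e-05), Mcam lower (-1.60, adjusted p = 0.000593) and Abcc9 higher (1.15, adjusted p = 0.0493). The melanocyte sums did not overlap between the groups, nor did those of the fibroblast markers (254300 to 560400 and 668200 to 766700), each with a two-sided exact permutation p of 0.0286 (adjusted 0.114), the smallest that 70 divisions allow.

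**Figure D4:**
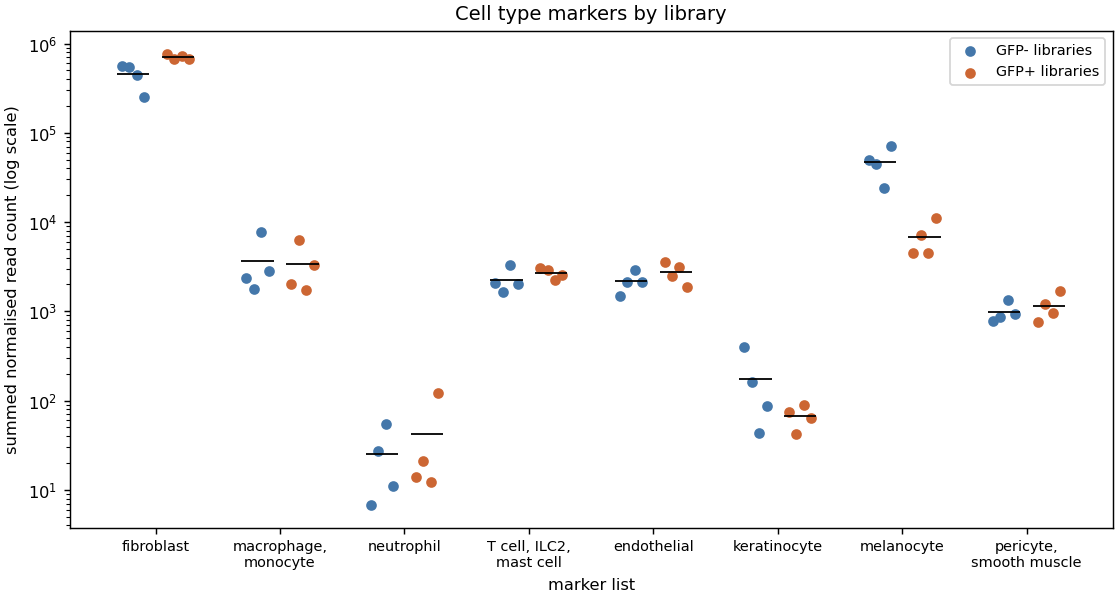
Summed normalised read count (y axis, log scale) of 8 cell type marker lists (x axis) in GFP- (left points) and GFP+ (right points) libraries, with replicates 1 to 4 from left to right and the mean as a black line. The fibroblast and melanocyte sums are apart in opposite directions and the other 6 overlap.

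Downstream of the receptors, Irak2 (ENSMUSG00000060477, plus strand of chromosome 6, 113638467 to 113695026), a kinase of the MyD88 complex, had normalised counts of 36.6, 95.3, 165 and 122 in GFP- replicates 1 to 4. The GFP+ replicates had 31.9, 119, 33.8 and 107. Both groups held low and high libraries, and the log2 fold change of -0.46 ± 0.59 (SE), the only negative one among the 9 members tested, was not called (DESeq2 adjusted p = 0.734).

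Myd88 (ENSMUSG00000032508, minus strand of chromosome 9, 119335934 to 119341411) had 0 reads in all 8 libraries out of 120864303 counted. A count of 0 allows up to 3 reads, which is 1.01 to 32.96 normalised counts depending on the library and covers counting error only. This 0 is not a measurement of absence. The interval of Myd88 lies wholly inside that of Slc22a14 (119169455 to 119365553) on the same strand. Of the 456 protein-coding genes in the table that are nested in another gene of the same strand in this way, 450 (98.7%) were at 0 in all 8 libraries, against 3681 of 21511 (17.1%) that are not nested. Slc22a14 itself had a mean of 36.5 normalised counts. The feature type used in the counting is not given in the sources used here.

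Levels of different genes can be set side by side only per length. Per kilobase of exon, the order of the members by mean normalised count over the 8 libraries was Il1r1, Il33, Il1rl2, Il1rl1, Il1b, Il1rap, Il1rn, Irak2, Il1a and Myd88. Normalised counts of Il1r1 per kilobase were 397 ± 116 (SD, n = 4) for GFP- and 825 ± 83.1 (SD, n = 4) for GFP+ cells. Il33 had 464 ± 93.5 (SD, n = 4) and 510 ± 127 (SD, n = 4), and Il1r1 exceeded it in 5 of 8 libraries, so that the order of these genes differed between libraries. Il1rl2 had 193 ± 62.0 and 290 ± 65.6 (SD, n = 4), below Il33 in all 8 libraries. Il1rl1, with 132 ± 78.2 and 144 ± 28.3 (SD, n = 4), was below Il1rl2 in all 8. Il1b, at 44.5 ± 19.3 and 52.4 ± 21.6 (SD, n = 4), was below Il1rl1 in every library, and Il1rap, at 35.3 ± 6.61 and 41.9 ± 8.25 (SD, n = 4), was below Il1b in 6 of 8. Il1rn had 17.7 ± 17.6 and 23.1 ± 7.29 and Irak2 23.7 ± 12.2 and 16.5 ± 10.5 (SD, n = 4), with Il1rn above Irak2 in 4 of 8 libraries, and Il1a was at or below 22.3 in all. Per kilobase of the whole gene interval, introns included, Il1rn moved ahead of Il1rap and the other ranks by the mean over 8 libraries stayed, but the leading genes drew together. Il1r1 then averaged 27.4 ± 8.03 for GFP- and 56.9 ± 5.74 for GFP+ cells (SD, n = 4), Il33 37.6 ± 7.58 and 41.3 ± 10.3, and Il1rl2 30.6 ± 9.83 and 46.0 ± 10.4 (SD, n = 4). On that scale Il33 exceeded Il1rl2 in 3 of 8 libraries and Il1r1 exceeded Il33 in 3 of 8, so their order is not settled. Which length fits the counts depends on whether intron reads were counted, which is not given in the sources used here. Of the protein-coding genes nested in another gene of the same strand, 98.7% had no read in any library. Among those not nested the share was 17.1%. Whether reads were assigned to whole gene intervals was not tested, so the order per kilobase of exon is to be read beside that per interval.

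The wider pathway was then read from 4 lists of genes of the IL-1 family. Of 10 ligand genes 5 were tested and none was called; Il36a, Il36b, Il36rn and Il1f10 had no read, and Il36g had too few for an adjusted p. Of 10 receptor and co-receptor genes all were tested and Il1r1 alone was called. Of 8 genes that process or bind IL-1 and IL-18, 2 were called higher, and both encode inflammatory caspases. Casp1, which cleaves pro-IL-1β, had normalised counts of 59.7, 76.7, 154 and 92.4 in GFP- and 225, 178, 185 and 214 in GFP+ replicates 1 to 4, a log2 difference of 1.21 ± 0.32 (SE; DESeq2 adjusted p = 0.00341). It was not called by edgeR (adjusted p = 0.161) or by limma voom (adjusted p = 0.0875). Casp4, which senses cytosolic lipopolysaccharide, had 471, 495, 1307 and 648 in GFP- and 1346, 1366, 1709 and 1564 in GFP+ replicates 1 to 4, a log2 difference of 1.07 ± 0.31 (SE; DESeq2 adjusted p = 0.00883, edgeR adjusted p = 3.32e-05). For both caspases all GFP+ libraries lay above all GFP- libraries. Without GFP- replicate 2 the DESeq2 adjusted p became 0.0522 for Casp1 and 0.0548 for Casp4, and without GFP+ replicate 3 it became 0.0535 for Casp4.

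Of 23 signalling genes 21 were tested, and Irak1, a kinase recruited by MyD88, was called. Its mean was 799.8 ± 40.1 (SD, n = 4) for GFP- and 1207 ± 279 (SD, n = 4) for GFP+ cells, a log2 difference of 0.60 ± 0.21 (SE; DESeq2 adjusted p = 0.0408, edgeR adjusted p = 0.0846). The call was lost in 6 of the 8 fits that left out 1 library and held only without GFP- replicate 3 and without GFP+ replicate 4. Together, 4 of 44 tested genes on the 4 lists were called (9.09%), beside 9.42% of all tested genes in either direction. By direction, 4 were higher and 0 lower, beside 4.66% higher and 4.76% lower of all tested genes. The median log2 fold change of the 44 genes was 0.15, beside -0.01 for all tested genes.

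Of 30 genes that IL-1 is known to induce in fibroblasts, 29 were tested, and 15 were called higher and 0 lower, beside 4.66% and 4.76% of all tested genes, with a median log2 fold change of 0.78. The 5 called genes with the largest mean normalised count, which does not allow for gene length, were the neutrophil chemokine Cxcl1, the macrophage growth factor Csf1, the NF-κB cofactor Nfkbiz, the cytokine Il6 and the stromelysin Mmp3. Mean normalised counts of Cxcl1 were 9321 ± 1513 (SD, n = 4) for GFP- and 20190 ± 3357 (SD, n = 4) for GFP+ cells, a log2 difference of 1.12 ± 0.19 (SE; DESeq2 adjusted p = 2.20e-07). Those of Mmp3 were 1858 ± 367 (SD, n = 4) and 7087 ± 413 (SD, n = 4), a log2 difference of 1.95 ± 0.17 (SE; DESeq2 adjusted p = 1.42e-26). The log2 fold changes of Csf1, Il6 and Nfkbiz were 1.28, 1.06 and 0.55, with DESeq2 adjusted p values of 7.82e-05, 2.20e-07 and 0.0371. Limma voom did not call Csf1 (adjusted p = 0.0591). The call of Nfkbiz was lost without GFP- replicate 1 or 4 and without GFP+ replicate 1 or 3, with adjusted p values of 0.105, 0.127, 0.115 and 0.134. The other called genes were Ccl7, Csf3, Has2, Icam1, Lcn2, Nfkbia, Ptges, Saa3, Sod2 and Vcam1. Limma voom called these except Ptges (adjusted p = 0.138) and Has2 (adjusted p = 0.415). Csf3 had 0, 2, 0 and 3 reads in GFP- replicates 1 to 4. For 13 of the 29 genes all GFP+ libraries lay above all GFP- libraries, beside 6.37% of all tested genes. Il6, Cxcl1, Ccl7, Csf1, Icam1, Vcam1, Has2 and Mmp3, like Il1r1, are named by the study from these samples, as is Ccl2. DESeq2 did not call Ccl2 (log2 fold change 0.53 ± 0.26 SE, adjusted p = 0.230). It was called higher by edgeR (adjusted p = 0.0463) and by limma voom (adjusted p = 0.0483). Because the study named these genes and many also respond to other cytokines, their counts are not independent evidence of a direction. With size factors from the fibroblast markers 3 of the genes were called higher and 4 lower, and their median became -0.20, beside -0.98 for all tested genes.

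**Figure D5:**
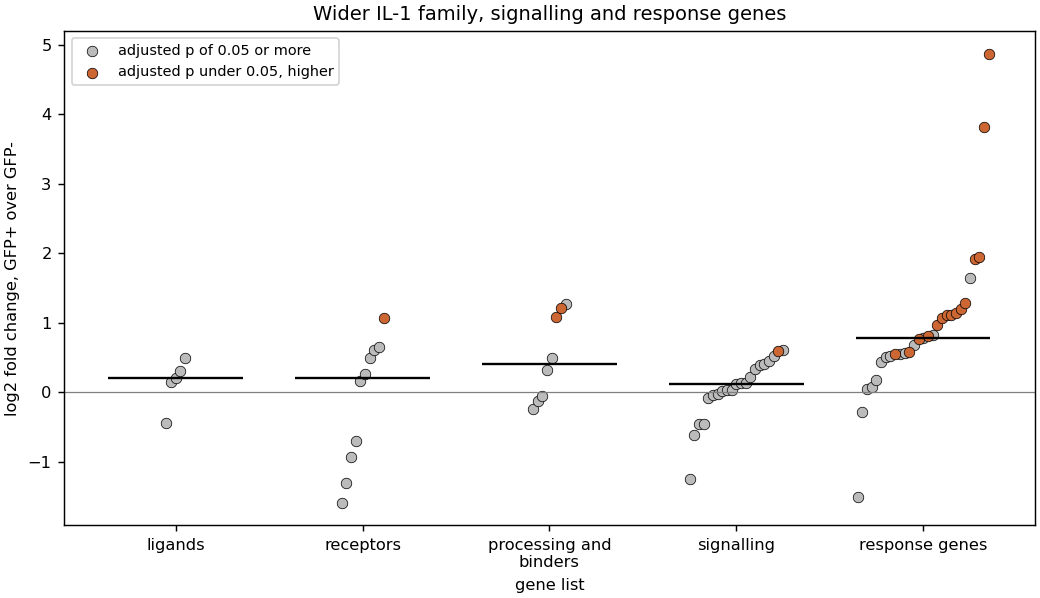
Log2 fold change of GFP+ over GFP- (y axis) for the tested genes of 5 lists (x axis), each point 1 gene in order of its value within the list. Orange points have a DESeq2 adjusted p under 0.05 and black lines are list medians: 0.20 for ligands, 0.21 for receptors, 0.40 for processing and binders, 0.12 for signalling and 0.78 for response genes.

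The genes whose pattern over the 8 libraries was most like that of Il1r1 were sought among 8811 other genes, all with at least 100 normalised counts on average. The measure was the root mean square difference between centred log2(normalised count + 1) values, which had a median of 0.71 over all these genes. The closest were Adam23 (0.12), which encodes a surface protein without protease activity, Syn3 (0.12), a synapsin, and Cacna2d1 (0.12), a calcium channel subunit. All were called higher in GFP+ cells, with log2 fold changes of 1.20, 1.23 and 1.07. Such differences follow largely from the choice, because the profiles compared include the step between the groups.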

How the data were processed

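The 8 libraries (4 GFP-, 4 GFP+) were grouped by their labels. Per the study's methods and processing notes, the authors used a stranded low-input kit for total RNA, trimmed reads with cutadapt 3.4, mapped them to GRCm38 with STAR 2.7.3a, and counted them by strand with featureCounts 2.0.1 on Ensembl 92 genes, so that reads of antisense genes are largely kept apart. The authors deposited raw read counts per gene, used here, and a rounded normalised score per gene and library, used only to check the size factors, which were equal. Columns with the authors' own fold changes and p-values were not used. Per-sample columns left unused: 0.

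Genes with a count (29043) were fitted in R 4.3.3 with DESeq2 1.42.0 (two-sided Wald test for the group, with no covariate and size factors by the median of ratios), and genes with a Benjamini-Hochberg adjusted p under 0.05 over all 15283 genes that kept one were called. A further 13443 genes lost their adjusted p to independent filtering, and 317 their p to the Cook distance filter. Alternatives were edgeR 4.0.16 (quasi-likelihood, TMM), limma 3.58.1 (voom), TMM factors in DESeq2, a mean raw count of at least 10, neither filter, an adjusted p under 0.01, the replicate number as a block and each library left out. Size factors from the fibroblast markers, the whole gene interval as length and the ratios of Il1r1 were added after seeing the data. The members, lists and tests were chosen with earlier results of these data known. Every member was named, every called gene of the 4 IL-1 lists, the called response genes (values for the 5 with the largest mean normalised count), and the 3 genes closest to Il1r1 in profile; other names were picked with the values in view. Coordinates and lengths come from GENCODE M21 on GRCm38. No 2 replicates were closer than sampling noise (chi-square per degree of freedom 10.2 to 81.3). The code was tested on simulated data.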

Additional observations from a re-analysis of the deposited data

Results flagged for a closer look

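In GFP- replicate 3, Il1rl2 had a normalised count of 1945, while the next highest GFP- library had 1180; the gap was 0.874 of the group's range, above the 95% limit of Dixon's test for 4 samples. In the same library, Il1a had 43.9 normalised counts from 4 reads, while the next highest GFP- library had 7.35, a gap of 0.833 of the range. This library was the shallowest of the 8, and Il1r1, Il1rl1, Il1b, Il1rn and Irak2 were also at their highest GFP- value there. Chance flags about 1 in 20 groups, and 18 groups of member values were examined.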

How the results depend on the processing

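The call of Il1r1 held in 16 of 17 alternatives, with log2 fold changes of 0.94 to 1.26 when single libraries were left out; with size factors from the fibroblast markers it was 0.12. That scaling also took the called members to 0 higher and 2 lower, all genes to 81 higher and 7510 lower, the 4 IL-1 lists to 0 higher and 17 lower, and the response genes to 3 higher and 4 lower. Under it the log2 fold changes turned to -0.88 for Il1a, -0.70 for Il1b, -0.58 for Il1rn, -0.72 for Il1rap, -0.78 for Il1rl1, -0.37 for Il1rl2, -0.77 for Il33, -0.40 for Irak1, -0.42 for Nfkbiz and -0.34 for Il1r2. It moved the median of all tested genes by -0.98, and relative to that median every member listed here stayed above 0, by 0.11 (Il1a) to 0.61 (Il1rl2).

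Called members numbered 2 with edgeR and with limma, and 1 to 2 when single libraries were left out, the second being Il1rl2. All genes called numbered 458 higher and 480 lower with limma, and 419 and 425 at an adjusted p under 0.01; without single libraries they ran from 460 to 937 and from 469 to 900. The 4 IL-1 lists had 1 to 5 genes called higher without single libraries. Signs of uncalled members turned for Il1a (-1.05 to 2.20 without single libraries), Il1b (-0.0256 to 0.46), Il1rl1 (-0.0270 to 0.60) and Il33 (-0.0388 to 0.26). Those of Il1rn ran from 0.16 to 1.21 and of Irak2 from -0.80 to -0.20 without a change of sign. The causes were not tested.

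With the replicate number as a block, 2 members were called higher, Il1r1 and Il1rl2 (log2 fold change 0.61, DESeq2 adjusted p = 0.00208). Neither the labels nor the study's methods say whether same-numbered libraries share a mouse. Their deviations from the group means correlated by 0.05, -0.16, -0.12 and 0.26 for replicates 1 to 4 over 8812 genes, and of the GFP- libraries only replicate 4 correlated best with its own number, so the numbers were not treated as pairs. GFP- replicate 3 had 883144 counts. Its values of Il1a, Il1b, Il1rn and Irak2 rested on 4, 11, 21 and 15 reads and are imprecise.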
